A study of Mus musculus with 12 samples.

Results

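Gata2, Gata3, Tal1, Sox14, Pax3 and Pax7 are 6 transcription factor genes of the developing midbrain. They were taken from the table of gene counts by their symbols, and they are 6 of the 40690 gene identifiers in that table. All 6 passed the filter on low counts. They were chosen by their RKI values, the levels per embryo and the difference between homozygotes and wild types of the RKI experiment, so their RKI values are given below as a description, without a test.

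Neurons that release GABA, the main inhibitory transmitter, arise in the embryonic midbrain from progenitors that leave the cell cycle. Gata2, a zinc finger factor, is switched on in these newborn cells and selects the GABAergic over the glutamatergic fate, and its relative Gata3 and the helix-loop-helix factor Tal1 follow it. Sox14 marks a subset of GABAergic neurons of the midbrain, pretectum and thalamus. Pax3 and Pax7 are paired-box factors known from dorsal progenitors, of the midbrain among other regions, and are not themselves GABAergic selector genes. Gata2, Gata3 and Tal1 also act in blood, and Gata2 and Tal1 in vessels.

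RNA selected by oligo-dT was sequenced from the whole brain of C57BL/6J embryos at embryonic day 14.5. The LC1 experiment compared 3 wild types (embryos 6, 26 and 73) with 3 knockouts (7, 22 and 71), which lack a conserved non-coding element near Pou3f2, and all 6 embryos are female. The RKI experiment compared 3 wild types (A2 male, A9 female, A16 male) with 3 homozygotes (A1 male, A10 female, A18 male), which carry a knock-in of a human variant in that element. Mutants and wild types were matched by sex and litter per the labels, no label names the litters, and p-values measure only the spread between these embryos.

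Total counts per library ran from 18192984 to 26566769. The element and the variant are not read by gene counts, so the genotypes were not checked. Of the 14 genes listed as hindbrain markers, 1 passed the filter on low counts, and the 9 Hox genes among them had at most 1 count in any library, with 6 of them at 0 in all 12 libraries. In these bulk samples fewer cells of a type and less RNA per cell cannot be told apart.

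The windows just before the start sites of Tal1, Gata3 and Sox14 are shown first, because the GATA factors and Tal1 bind short words in DNA and are members here themselves. RefSeq windows of 250 bases before a start (GRCm38.p6) were found for 5 members, in 7 windows. The strand of the gene is printed 5′ to 3′, with matches to a GATA word in capitals.
Tal1, chr4:115056176-115056425, plus strand: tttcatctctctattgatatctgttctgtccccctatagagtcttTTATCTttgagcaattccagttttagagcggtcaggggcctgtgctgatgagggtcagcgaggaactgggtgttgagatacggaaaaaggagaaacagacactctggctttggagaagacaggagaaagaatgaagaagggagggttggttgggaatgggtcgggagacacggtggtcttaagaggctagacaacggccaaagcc
Sox14, chr9:99876171-99876420, minus strand: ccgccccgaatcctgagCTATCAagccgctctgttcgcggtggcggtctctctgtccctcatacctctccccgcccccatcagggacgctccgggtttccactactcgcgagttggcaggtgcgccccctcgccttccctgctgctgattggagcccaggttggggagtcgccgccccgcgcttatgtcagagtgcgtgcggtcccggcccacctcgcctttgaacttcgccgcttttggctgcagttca
Gata3, chr2:9878601-9878850, minus strand: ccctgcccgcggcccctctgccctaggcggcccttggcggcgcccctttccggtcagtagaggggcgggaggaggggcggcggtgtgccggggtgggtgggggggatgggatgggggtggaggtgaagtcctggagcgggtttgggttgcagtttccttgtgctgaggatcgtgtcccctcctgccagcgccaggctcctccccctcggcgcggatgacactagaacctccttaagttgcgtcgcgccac
The GATA words searched on both strands were AGATAA, as well as AGATAG, and with another first letter TGATAA, as well as TGATAG. The word TTATCT, which is AGATAA on the other strand, stood 205 to 200 bases before the first Tal1 start. The word CTATCA, which is TGATAG on the other strand, stood 233 to 228 bases before the Sox14 start. The Gata3 window held none, nor did those of Gata2 and Pax7 and the second window of Tal1. Thus 2 of 7 windows held a GATA word, beside 26.5% of all 32851 windows of this length. The word CAGATG, an E-box of the kind Tal1 binds, was searched on both strands and stood in 0 of 7 windows, beside 14.4% of all windows.

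Per length of transcript, in the deposited RPKM, Sox14 and Tal1 were the most abundant of the 6 factors and Pax3 and Pax7 the least. The mean over 12 embryos was 2.68 RPKM for Sox14, 2.38 for Tal1, 1.75 for Gata2, 1.73 for Gata3, 0.426 for Pax3 and 0.357 for Pax7. The ranges of Sox14 (2.06 to 3.54) and Tal1 (1.22 to 3.31) overlapped, as did those of Gata2 (1.27 to 2.30) and Gata3 (0.516 to 2.79) and those of Pax3 (0.145 to 0.926) and Pax7 (0.0545 to 0.762). The range of Tal1 also held that of Gata2, and the range of Gata3 overlapped that of every other factor. Among the 16002 genes tested, Sox14 stood at the 33.9th percentile of mean RPKM and Pax7 at the 8.25th. Sox14 and Gata2 varied least between embryos, with a highest CPM 1.75 and 1.83 times the lowest. The ratio was 2.70 for Tal1, 5.47 for Gata3, 6.36 for Pax3 and 14.1 for Pax7. The low end of Pax7 rests on 7 counts in A16.

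Gata2 (ENSMUSG00000015053, chromosome 6 at 88193891 to 88207032, plus strand, GENCODE M21 on GRCm38) is the earliest of the GABAergic selectors. It stood at 5.30, 7.15 and 7.66 CPM in LC1 wild types 6, 26 and 73, and at 6.19, 5.87 and 6.92 CPM in LC1 knockouts 7, 22 and 71. CPM is the count as a share of the library total, which was scaled by TMM. It stood at 4.24, 4.76 and 4.19 CPM in RKI wild types A2, A9 and A16, and at 6.28, 6.29 and 5.50 CPM in RKI homozygotes A1, A10 and A18. All 3 RKI wild types lay below the other 9 embryos, and the LC1 groups overlapped.

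Tal1 (ENSMUSG00000028717, chromosome 4 at 115056426 to 115071755, plus strand) forms DNA-binding complexes with LIM-only and GATA proteins. It stood at 10.8, 10.7 and 14.4 CPM in LC1 wild types and at 13.1, 9.02 and 12.7 CPM in LC1 knockouts, in the same order of embryos. It stood at 5.33, 9.74 and 6.13 CPM in RKI wild types and at 13.2, 12.9 and 7.33 CPM in RKI homozygotes. A2 and A16 were lowest, A18 was next, and wild type A9 lay above homozygote A18, so the RKI groups overlapped.

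Gata3 (ENSMUSG00000015619, chromosome 2 at 9857078 to 9890034, minus strand) acts after Gata2 in these neurons. It stood at 9.42, 7.81 and 9.72 CPM in LC1 wild types and at 6.41, 5.87 and 11.1 CPM in LC1 knockouts. It stood at 2.69, 5.14 and 2.03 CPM in RKI wild types and at 10.3, 7.72 and 4.73 CPM in RKI homozygotes. A2 and A16 were lowest, with A18 next and A9 just above it. In the annotation 3 genes overlap Gata3, and as no source used here gives the strand setting of the counting, reads cannot be assigned by strand. These genes, Gm13256, 4930412O13Rik and 9230102O04Rik, had at most 2, 11 and 2 counts in any library, beside 45 or more for Gata3.

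Sox14 (ENSMUSG00000053747, chromosome 9 at 99874106 to 99876170, minus strand) stood at 6.25, 4.97 and 4.58 CPM in LC1 wild types and at 7.42, 5.67 and 5.08 CPM in LC1 knockouts. It stood at 4.24, 5.43 and 4.96 CPM in RKI wild types and at 5.98, 6.83 and 5.23 CPM in RKI homozygotes. Wild type A9 lay above homozygote A18, and embryo 73, highest for 4 other members, was the second lowest for Sox14.

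Pax3 (ENSMUSG00000004872, chromosome 1 at 78101267 to 78197134, minus strand) stood at 3.57, 2.62 and 5.69 CPM in LC1 wild types and at 2.30, 1.67 and 2.92 CPM in LC1 knockouts. It stood at 0.895, 2.51 and 1.17 CPM in RKI wild types and at 3.08, 3.64 and 1.60 CPM in RKI homozygotes. In both experiments 1 embryo kept the groups from separating: knockout 71 lay above wild type 26, and wild type A9 lay above homozygote A18.

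Pax7 (ENSMUSG00000028736, chromosome 4 at 139737062 to 139833528, minus strand) stood at 2.92, 1.75 and 4.43 CPM in LC1 wild types and at 2.40, 0.855 and 1.89 CPM in LC1 knockouts. It stood at 1.48, 2.17 and 0.315 CPM in RKI wild types and at 2.25, 3.20 and 1.49 CPM in RKI homozygotes. A16 was lowest of all 12, and A2 and A18 were nearly equal.

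**Figure D1:**
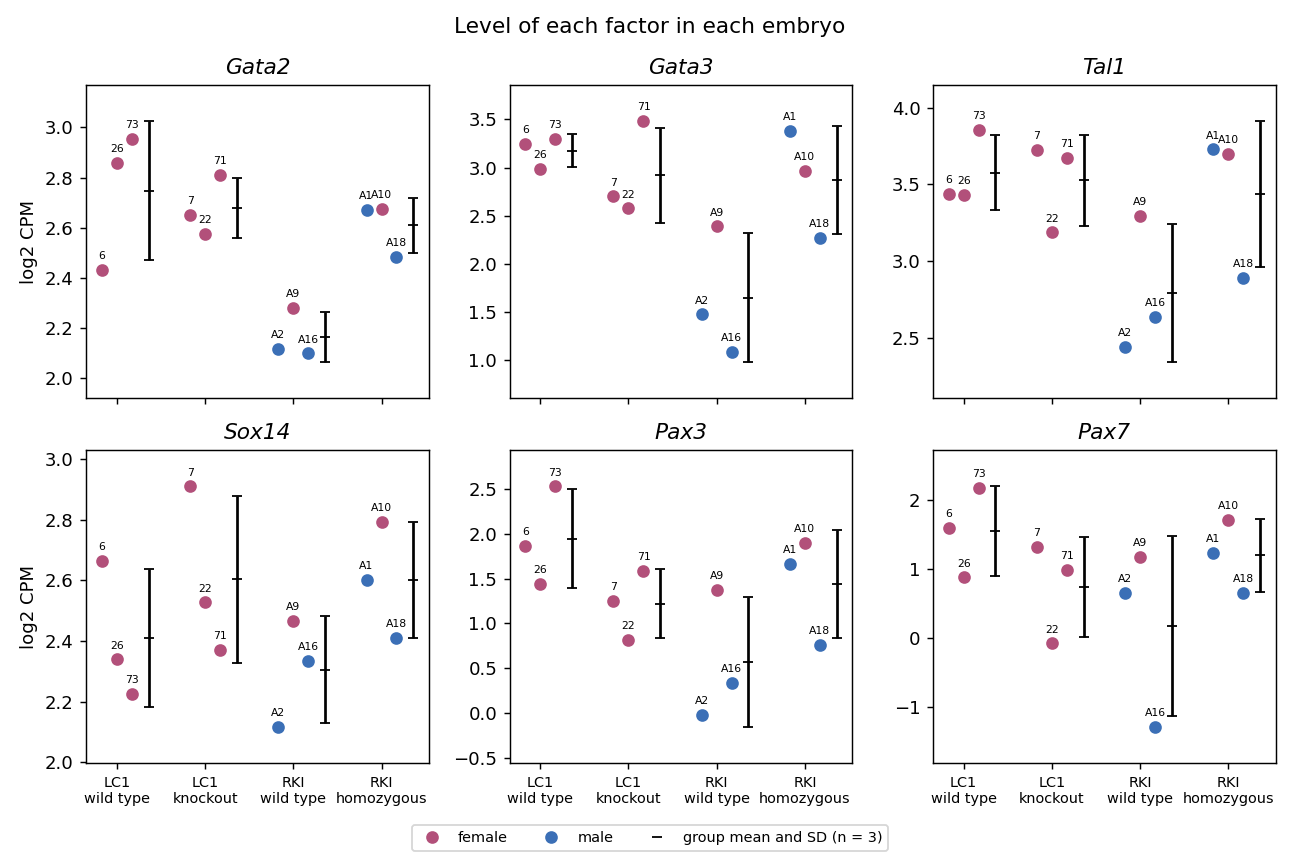
Level of each of the 6 factors in each embryo on the log2 CPM scale (vertical axes differ), with embryos named, points colored by sex, and bars giving the group mean and SD (n = 3). A2 and A16, both male RKI wild types, sit at or near the bottom of every panel, and A18 sits lowest of the 3 RKI homozygotes in every panel.

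The same few embryos were low or high for most factors. The RKI levels chose the members, so for A2, A16 and the other RKI embryos this is a description. A2 and A16 each had all 6 members among the 3 lowest of 12 embryos, and A18 had 3 of them there. Embryo 73 had 5 members among the 3 highest, and A1 and A10 had all 6 above their mean. The mean deviation of the 6 members from their means, on the log2 scale, was -1.01 in A16, -0.74 in A2, -0.29 in A18, -0.27 in knockout 22 and -0.04 in A9. It was 0.64 in embryo 73, 0.42 in A10 and 0.34 in A1.

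The LC1 comparison asks how the factors stood without the element, in embryos outside the RKI experiment. Earlier results of these data were known when the members were chosen, so the LC1 tests may not be wholly independent of the choice. None of the 6 members passed the test across all genes: the adjusted p of edgeR's quasi-likelihood test was 1 for each, and 0 of 16002 genes passed (0%). At an unadjusted p under 0.05 edgeR gave 334 genes (2.09%), limma-voom 330 and DESeq2 183, and DESeq2 and limma-voom also passed 0 after adjustment. Of the members 1 of 6 was higher in the knockouts, beside 48.6% of all genes tested, and 5 were lower, beside 51.4%. Groups overlapped for all 6 members, while 3.81% of all genes were lower and 3.36% higher in the knockouts without overlap. Pax3 was the single member lower at an unadjusted p under 0.05, beside 1.42% of all genes. The median log2 fold change of the members was -0.16, beside 0.00 over all genes.

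Among the GABAergic selectors, the LC1 log2 fold changes were small against their errors. Gata2 gave -0.09 with SE 0.142, Tal1 gave -0.06 with SE 0.208, and Gata3 gave -0.22 with SE 0.316. The 95% interval of the fold ran from 0.765 to 1.16 for Gata2, from 0.705 to 1.31 for Tal1 and from 0.529 to 1.38 for Gata3. Sox14 gave 0.20 with SE 0.160, and its fold interval ran from 0.907 to 1.45. Without wild type 73 the values of Gata2 and Tal1 changed sign, to 0.023 and 0.10, and without knockout 22 that of Tal1 was 0.11. The value of Gata3 was -0.55 without knockout 71, -0.11 without knockout 7 and -0.042 without knockout 22. That of Sox14 was 0.34 without wild type 6, 0.30 without knockout 71, 0.10 without wild type 73 and 0.035 without knockout 7. Without wild type 6 Gata2 was at -0.23.

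Pax3 and Pax7 had the largest LC1 values of the 6. Pax3 averaged 3.96 ± 1.57 CPM in the wild types (SD, n = 3) against 2.30 ± 0.625 CPM in the knockouts (SD, n = 3). The fitted log2 fold change was -0.82, with SE 0.303. The edgeR p was 0.0165 before adjustment and 1 after it. Pax7 averaged 3.04 ± 1.35 CPM in the wild types (SD, n = 3) against 1.72 ± 0.789 CPM in the knockouts (SD, n = 3). The fitted log2 fold change was -0.88, with SE 0.448. The edgeR p was 0.0724 before adjustment and 1 after it. Permuting the LC1 labels exactly, two-sided, on log2 CPM gave p = 0.2 for Pax3, 0.3 for Pax7, 0.4 for Gata3 and Sox14, 0.7 for Gata2 and 0.9 for Tal1, and 0.1 is the smallest p that 3 against 3 embryos can give. The values of Pax3 and Pax7 were -0.46 and -0.50 without wild type 73, and -0.61 and -0.51 without knockout 22. The authors' deposited table gives -0.768 for Pax3 with an unadjusted p of 0.000372 and an adjusted p of 0.531, and -0.816 for Pax7 with 0.00112 and 0.718.

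In the RKI experiment all 6 members were higher in the homozygotes, the pattern by which they were chosen, beside 50.6% of all genes tested. The log2 fold change was 0.45 with SE 0.145 for Gata2, 0.68 with SE 0.214 for Tal1 and 1.25 with SE 0.347 for Gata3. It was 0.30 with SE 0.156 for Sox14, 0.90 with SE 0.327 for Pax3 and 0.81 with SE 0.464 for Pax7. The median was 0.74, beside 0.00 over all genes. Gata2 was the single member whose groups did not overlap, and 2.59% of all genes were higher in homozygotes without overlap. The direction was the same for all 6 without A16, with values of 0.44 for Gata2, 1.04 for Gata3, 0.68 for Tal1, 0.37 for Sox14, 0.91 for Pax3 and 0.44 for Pax7. Without homozygote A1 the values of Gata3, Tal1 and Pax3 were 0.79, 0.37 and 0.58.

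For 5 of 6 members, Sox14 excepted, the RKI homozygotes were nearer to the LC1 wild types than the RKI wild types were. Homozygotes minus LC1 wild types, in mean log2 CPM, was -0.14 for Gata2, -0.14 for Tal1, -0.30 for Gata3, 0.19 for Sox14, -0.51 for Pax3 and -0.35 for Pax7. RKI wild types minus LC1 wild types was -0.58 for Gata2, -0.79 for Tal1, -1.53 for Gata3, -0.10 for Sox14, -1.38 for Pax3 and -1.37 for Pax7. These differences share their control embryos and set female embryos beside groups with males, and they were not tested. The choice of the members by their RKI values, with homozygotes above wild types, contributes to this order.

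**Figure D2:**
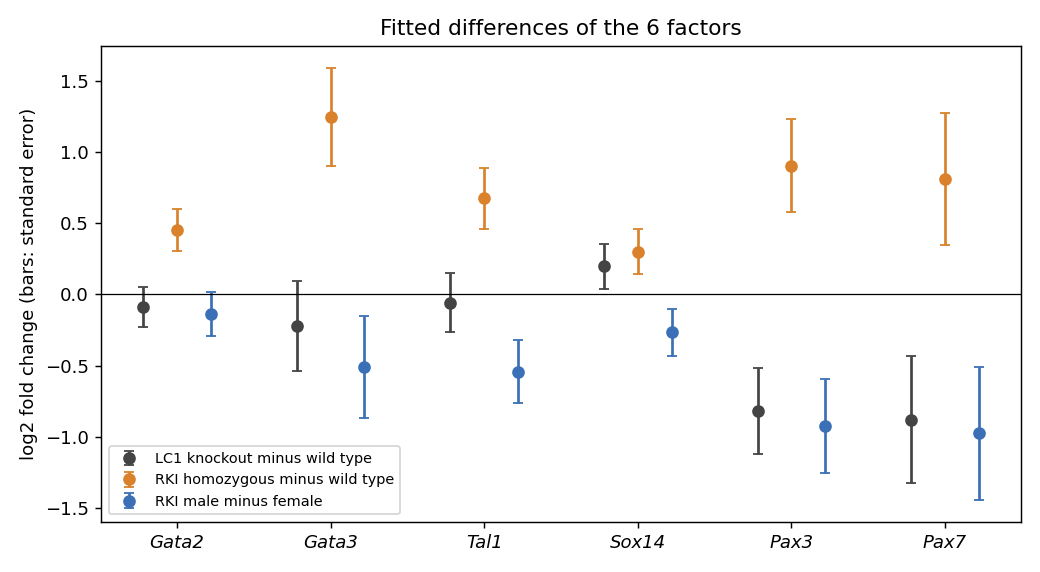
Fitted log2 fold change of each factor, with its standard error, for LC1 knockout minus wild type, RKI homozygous minus wild type and RKI male minus female. The RKI values, which chose the genes, run from 0.30 to 1.25, the LC1 values from -0.88 to 0.20, and the male minus female values from -0.97 to -0.14.

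Each RKI group holds 2 males and 1 female, and the 2 embryos lowest in the members, A2 and A16, are both male. The same RKI levels chose the members, so their difference by sex is also a description without a test. Within the RKI libraries, with genotype in the model, all 6 members were lower in males, beside 50.3% of all genes. The log2 difference was -0.14 for Gata2, -0.51 for Gata3, -0.54 for Tal1, -0.27 for Sox14, -0.92 for Pax3 and -0.97 for Pax7. Over all genes 8 of 16002 passed by edgeR between the sexes (0.05%), with 829 (5.18%) at an unadjusted p under 0.05. Without A9 the value of Gata3 was -0.050 and that of Tal1 -0.34. The value of Gata3 was -1.12 without A10, -0.92 without A1 and -0.34 without A18.

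Homozygotes were above wild types within each sex of the RKI experiment for all 6 members. These are the RKI values that chose the members, split by sex, so they are a description without a test. Between males (2 against 2) the difference in mean log2 CPM was 1.55 for Gata3, 1.27 for Pax7, 1.05 for Pax3, 0.77 for Tal1, 0.47 for Gata2 and 0.28 for Sox14. Between the single female of each genotype, A10 and A9, it was 0.58 for Gata3, 0.54 for Pax7, 0.52 for Pax3, 0.40 for Tal1, 0.39 for Gata2 and 0.33 for Sox14.

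Covariation of the members was examined in LC1, outside the RKI contrast that chose them, though earlier results of these data were known then. Of 15 pairs, 10 had a positive Pearson r over the 6 LC1 embryos and 5 a negative one, and all 5 negative pairs held Sox14. The median r was 0.45, with a range of -0.73 to 0.91. By an exact two-sided permutation test 0 of 15 pairs passed after adjustment over the pairs, and the smallest adjusted p was 0.333 for Pearson's r and 0.219 for Spearman's rho. Pax3 and Pax7 had the highest r, 0.91 with an exact permutation p of 0.0222 before adjustment and 0.333 after it. Their Spearman's rho was 0.83 with an exact permutation p of 0.0583 before adjustment and 0.219 after it. Without the 2 embryos farthest from the median of Pax3 their r was 0.47. Tal1 and Pax7 had an r of 0.81 with an exact permutation p of 0.0472 before adjustment and 0.354 after it, and a rho of 0.83 with an exact permutation p of 0.0583, or 0.219 adjusted. Over the 4 embryos left without the 2 farthest from the median of Tal1, a narrower range of Tal1, their r was -0.07.

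Over the 6 RKI embryos all 15 pairs had a positive r, as a description, since the contrast that chose the members contributes to it. The values ran from 0.56 (Sox14 and Pax7) to 0.99 (Tal1 and Pax3), with a median of 0.86. Without A16 they ran from 0.66 to 0.98, with a median of 0.90 and all 15 positive. Sox14 had an r of 0.81 to 0.95 with Gata2, Gata3, Tal1 and Pax3 in RKI and of -0.73 to -0.12 with the same genes in LC1, a difference that was not tested.

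**Figure D3:**
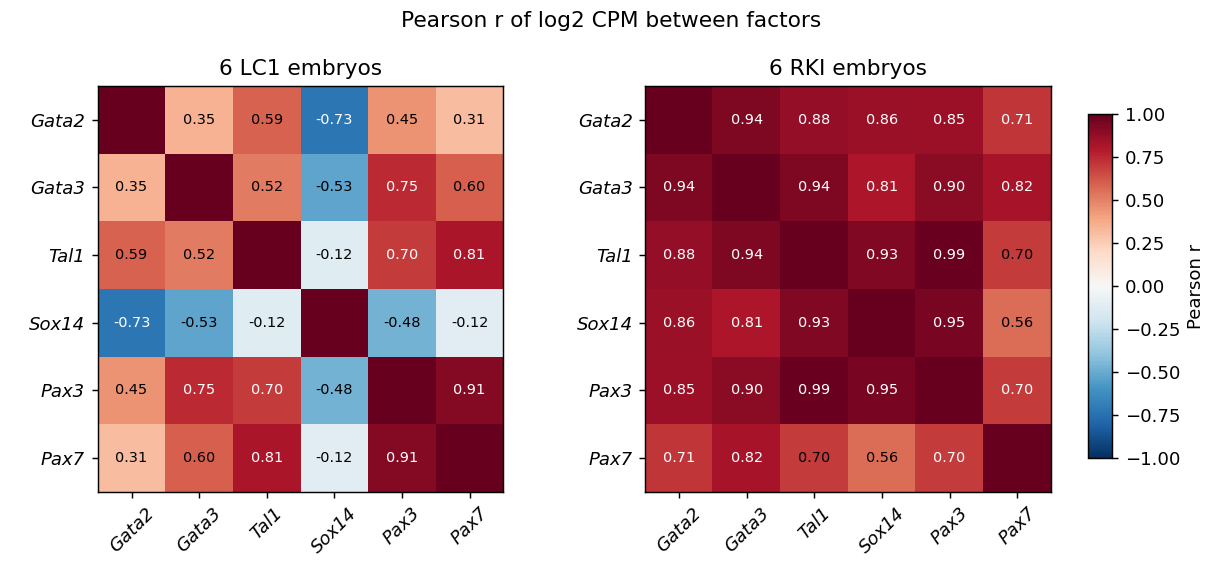
Pearson r of log2 CPM for each pair of factors over the 6 LC1 embryos and over the 6 RKI embryos. In LC1 the 5 negative values all lie in the Sox14 row, and in RKI all 15 pairs lie between 0.56 and 0.99.

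The other genes of the Tal1 complex and of the midbrain GABAergic pathway were split between higher and lower in both experiments. All 19 listed genes were measured, and 0 passed in either comparison by edgeR, with 1 at an unadjusted p under 0.05 in LC1 and 2 in RKI, where 1.92% of all genes had such a p. In LC1 knockouts 12 were higher, with a median log2 fold change of 0.02, and in RKI homozygotes 11 were higher, with a median of 0.04. The LIM homeobox gene Lhx1 averaged 32.1 ± 4.07 CPM among RKI wild types against 39.1 ± 1.71 CPM among homozygotes (SD, n = 3). Its fitted log2 fold change was 0.29, with an edgeR p of 0.00155 before adjustment and 1 after it. Tcf4, of the same list, was lower in homozygotes, at -0.17 with an edgeR p of 0.0191 before adjustment, and did not pass after it. Gad1, which encodes a GABA-synthesising enzyme used by GABAergic neurons of all regions, averaged 73.3 ± 18.7 CPM among RKI wild types against 80.8 ± 3.95 CPM among homozygotes (SD, n = 3).

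Genes that mark the midbrain as a region were counted beside the members. Of 20 listed, 17 were measured, and 0 passed in either comparison by edgeR, with 1 at an unadjusted p under 0.05 in LC1 and 3 in RKI. In RKI homozygotes 13 of 17 were higher, with a median of 0.32. Without A16 9 of 17 were higher and the median was 0.01. In LC1 knockouts 5 of 17 were higher, with a median of -0.18. Wnt1, a signalling gene of the dorsal midline and of the midbrain and hindbrain border, averaged 1.13 ± 0.131 CPM among LC1 wild types against 0.660 ± 0.122 CPM among knockouts (SD, n = 3), without overlap. Its edgeR p was 0.0318 before adjustment and 1 after it.

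A16 had no counts of 3 midbrain genes. En1, a homeobox gene of the midbrain and hindbrain border, was at 0 counts in A16, as were En2, its relative, and Pitx3, a gene of midbrain dopamine neurons, and a count of 0 there allows up to 0.135 CPM, for counting error only. In the other 11 embryos En1 ran from 0.167 to 2.22 CPM, En2 from 0.267 to 1.31 CPM and Pitx3 from 0.125 to 1.14 CPM. Dmbx1, a homeobox gene of the dorsal midbrain, was at 0.135 CPM in A16 and 0.117 CPM in A2, both 3 counts, beside 0.155 to 0.757 CPM in the other 10. The part of A16's tissue content in the members' values was not tested.

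**Figure D4:**
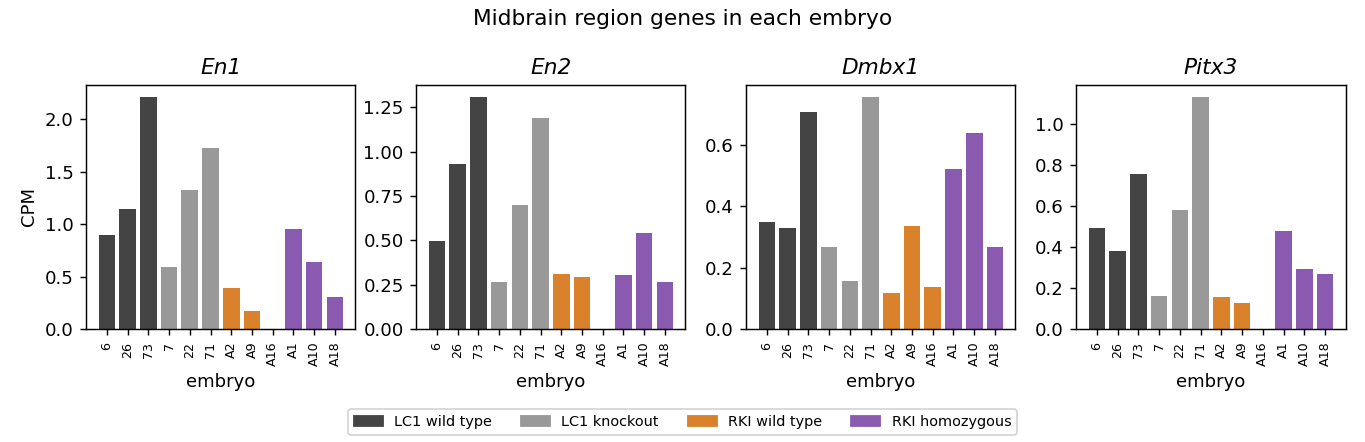
CPM of 4 midbrain region genes in each embryo, 1 bar per embryo, colored by group. En1, En2 and Pitx3 are at 0 in A16, and Dmbx1 is lowest in A2 and A16, the 2 embryos in which all 6 factors were among the 3 lowest.

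Thalamic and forebrain genes gave the other sides of this comparison. Of 10 listed genes of the thalamus and pretectum, 9 were higher in RKI homozygotes, with a median of 0.17, or 7 with a median of 0.07 without A16, and 0 passed by edgeR. At an unadjusted edgeR p under 0.05 there were 3 of these 10 in RKI and 0 in LC1, beside 1.92% and 2.09% of all genes. Shox2, a homeobox gene of the thalamus, was at 14.6, 15.8 and 9.55 CPM in RKI wild types A2, A9 and A16 and at 18.1 to 20.7 CPM in the other 9 embryos. Its edgeR p in RKI was 0.00029 before adjustment, the smallest of all genes tested, and Shox2 did not pass after adjustment. Tcf7l2, a Wnt pathway factor of the thalamus and pretectum, was at 143 CPM in A16 and 212 CPM in A2, beside 266 to 322 CPM in the other 10. Of 15 forebrain genes 5 were higher in RKI homozygotes, with a median of -0.10, and 12 in LC1 knockouts, with a median of 0.10, and 0 passed by edgeR. At an unadjusted edgeR p under 0.05 there were 4 of these 15 in RKI and 2 in LC1.

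The mean deviation of each list with more than 1 measured gene, computed as for the members, was set beside theirs. For the r below, the members were first centred within each experiment and divided by their SD, and then averaged. Over the 6 RKI embryos, as a description, the r of the list's mean deviation with this average was 0.71 for the midbrain list. It was 0.69 for the thalamic list and -0.77 for the forebrain list. Over the 6 LC1 embryos it was 0.58, 0.57 and -0.59. For the list of the Tal1 complex and GABAergic pathway it was 0.75 in RKI and -0.50 in LC1, and for endothelium -0.62 and 0.42. For megakaryocytes and mast cells it was -0.75 and -0.66, for erythroid genes -0.09 and 0.40, and for neural crest and muscle 0.43 and 0.25. All these values share libraries and scaling. A16 had -1.33 for the midbrain list and -0.42 for the thalamic list. A2 had -0.10 and 0.02, beside -0.74 for the 6 members.

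**Figure D5:**
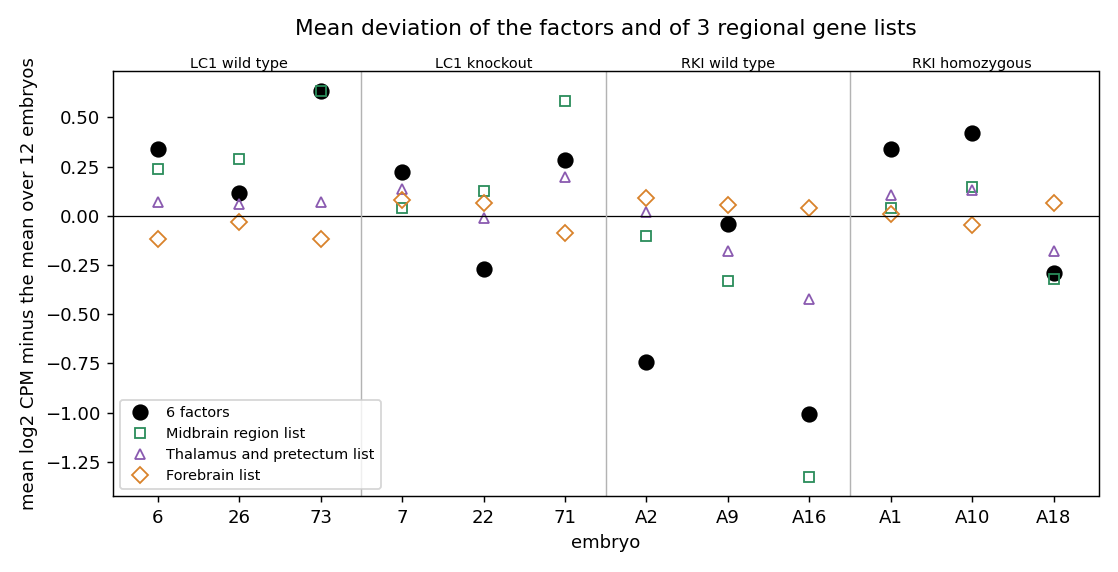
Mean deviation in log2 CPM, from the mean over 12 embryos, of the 6 factors and of the midbrain, thalamic and forebrain lists in each embryo. A16 is lowest for the factors and for the midbrain and thalamic lists, while in A2 the factors are at -0.74 and the midbrain list at -0.10.

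Markers of blood, where Gata2, Gata3 and Tal1 also act, overlapped between the groups in their summed level. Of 18 erythroid genes 14 were measured, 9 were higher in RKI homozygotes and 6 in LC1 knockouts, and 0 passed by edgeR. Their summed level ran from 1095 to 2058 CPM in RKI wild types and from 1152 to 1741 CPM in RKI homozygotes. It ran from 1414 to 2074 CPM in LC1 wild types and from 1229 to 2296 CPM in LC1 knockouts. Gata1, the erythroid GATA factor, had 2 to 8 counts in every library, and Tal1 had 136 or more. Of 10 endothelial genes 2 were higher in RKI homozygotes and 2 in LC1 knockouts, with summed levels of 436 to 484 CPM in RKI wild types and 446 to 467 CPM in homozygotes. The part of these cells in the members' values was not tested. Of 7 genes of megakaryocytes and mast cells 4 were measured and 2 were higher in RKI homozygotes. Of 10 genes of neural crest and muscle, tissues in which Pax3 and Pax7 also act, 4 were measured, 3 were higher in RKI homozygotes, and Myf5 was at 0 in all 12 libraries. No gene of these lists passed by edgeR in either comparison or had an unadjusted p under 0.05. With the erythroid genes left out of the library totals, the members' values kept their sign in both comparisons. This changes only the scaling, by a small part of each library, and cannot show which cells the members' reads come from.

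Each member was centred within each experiment and divided by its SD before the mean of the 6 was taken. The genes whose centred levels over the 12 embryos were most like this mean were ranked by Pearson's r as a description. They were Asic4 at 0.93, Lhx1 at 0.89, Mab21l2 at 0.89, Dmbx1 at 0.87, Asl at 0.87, Speg at 0.85, Shc2 at 0.85, Taok2 at 0.85, Tcf7l2 at 0.85 and Klhl36 at 0.84. Asic4, a member of the acid-sensing ion channel family, was at 11.2 CPM in A16 and 13.1 CPM in A2, beside 14.5 to 24.9 CPM in the other 10 embryos. Without centring 5 of these 10 genes remained among the 10 highest, and without A16 4 remained. For single members, the gene most alike was Ddc for Gata2 (r 0.91), Asic4 for Gata3 (0.93) and Tal1 (0.93), Mpzl1 for Sox14 (0.90), Mob3c for Pax3 (0.90) and Mib2 for Pax7 (0.91).

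How close each member lay to the rest was described by its r with the mean of the other 5. Over 12 embryos, centred in the same way, this r was 0.95 for Tal1, 0.89 for Gata3, 0.86 for Pax3, 0.74 for Pax7, 0.71 for Gata2 and 0.36 for Sox14. Over the 6 LC1 embryos alone it was 0.91 for Pax7, 0.90 for Tal1, 0.74 for Pax3, 0.51 for Gata3, 0.17 for Gata2 and -0.49 for Sox14.

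The deposited transcript RPKM, which split reads between isoforms by an estimate, gave 2 to 6 transcripts per member. The share of a member's summed transcript RPKM over all libraries was 66.2% for Gata2-002, 33.0% for Gata3-001, 48.1% for Tal1-001, 63.9% for Sox14-001, 53.6% for Pax3-001 and 58.0% for Pax7-001. Each other transcript held less than the one named for its gene. Shares moved widely between embryos: that of Tal1-001 ran from 32.9% to 83.8%, and that of Pax3-001 from 0% to 85.9%. In RKI the mean of Gata3-001 was 0.849 ± 0.450 RPKM in wild types and 1.79 ± 0.600 RPKM in homozygotes (SD, n = 3 each), and that of Gata2-002 was 0.526 ± 0.164 and 0.922 ± 0.105 RPKM. The other Gata2 transcript, Gata2-001, was lower in homozygotes, at 0.308 ± 0.177 RPKM in wild types and 0.205 ± 0.116 RPKM in homozygotes (SD, n = 3 each). These are descriptions of the contrast that chose the genes.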

How the data were processed

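Per the labels, whole-brain RNA of 12 embryos was sequenced after oligo-dT selection. The authors deposited counts per gene, RPKM per gene and per transcript, and comparison tables of theirs with log2 fold changes and p-values. Tools listed in the submitters' processing notes, with no role stated, are featureCounts 1.4.5, STAR 2.0.4b, limma, edgeR and Subread. No source used here gives the build, annotation or strand setting. The authors' deposited estimated counts per transcript, from a tool not stated, were not tested. Of 41264 deposited rows, 574 repeated an identifier with the same counts and were dropped.

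Gene counts were fitted together over 12 libraries, with 4 group means and sex (edgeR 4.0.16 in R 4.3.3: TMM scaling, filterByExpr, robust quasi-likelihood test, Benjamini-Hochberg adjustment over 16002 genes at 0.05), with 7 residual degrees of freedom. Log2 CPM used a prior count of 2. Single members were tested by exact permutation. Alternatives were DESeq2 1.42.0, limma-voom (limma 3.58.1), other scalings, no filter, fewer libraries and no sex term. The fit was tested on simulated data: of 50 genes changed by 1 on the log2 scale in LC1, among 16002, 96% were recovered, and of 50 changed by 0.5, 68%. Of 15655 unchanged genes 4 were called. The changed genes were drawn at random and given the spread typical of their level, so these shares do not give the recovery of the members. The members' own coefficient of variation between embryos, as fitted by edgeR, ran from 9.21% for Gata2 to 37.1% for Pax7, beside a common value of 6.94%. The members and gene lists were chosen with earlier results of these data known. Named genes are the 6 members, genes from the 3 with the smallest p in each list and comparison, and the 10 most alike in pattern, with the top gene for each member; others named for their levels (En2, Gad1, Gata1 and Myf5) were chosen after their values were seen, and some genes that the rule names are not reported here. Members lie on GRCm38 per GENCODE M21. Matches of 5 members to RefSeq promoters were by symbol.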

Additional observations from a re-analysis of the deposited data

How the results depend on the processing

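All alternatives but one were listed with the design; the counts over lists without A16 were added after seeing the data. With no filter on low counts 4 genes passed in LC1, 26 in RKI and 45 between males and females, in place of 0, 0 and 8, and the cause was not tested; by DESeq2 the sex count was 12. Leaving out 1 library at a time gave 0 genes in LC1, 0 to 2 in RKI (2 without A9, 1 without A1 and 2 without A10) and 7 to 12 between the sexes. The number of members higher in LC1 knockouts ran from 1 to 3, with 3 without wild type 73 and 2 without knockout 22. With 1 library left out the LC1 value of Gata2 ran from -0.23 to 0.023, positive without wild type 73, and that of Tal1 from -0.16 to 0.11, positive without wild type 73 (0.10) or knockout 22 (0.11); the cause was not tested. All 6 members, chosen by their RKI values, were higher in RKI homozygotes under each of the alternatives run. With 1 library left out the RKI value ran from 0.79 to 1.65 for Gata3, from 0.44 to 1.21 for Pax7, from 0.58 to 1.17 for Pax3 and from 0.37 to 0.86 for Tal1. For LC1 Pax3 it ran from -1.03 to -0.46 and for Pax7 from -1.21 to -0.50, and over the other settings the edgeR adjusted p of Pax3 was 0.106 or more. The 10 genes most like the members shared 5 with the list made without centring and 4 with the list made without A16. No paired analysis was possible because embryo numbers are not shared between groups and no label names the litters. Depth limits Pax7 (7 to 88 counts per library) and Pax3 (23 to 113) most.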
